A study of Homo sapiens with 24 samples.

Results

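THOC7 is a subunit of the THO complex, and the genes described here are 9 members of THO and of the larger transcription-export (TREX) assembly built on it: THOC1, THOC2, THOC3, THOC5, THOC6, THOC7, ALYREF, DDX39B and SARNP. They are 9 of the 58721 genes in the count files, each matched to a single Ensembl identifier. THOC7 was chosen by its measured fall in the libraries treated with FOXM1 siRNAs, so its values in that contrast are given as a description without a test. The other 8 genes were taken as its partners in the complex, and the question was whether they changed as well.

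THO is loaded onto RNA as it is transcribed. It brings the RNA helicase DDX39B (UAP56) and the adaptor ALYREF onto the maturing transcript, and ALYREF then hands the mRNA to the export receptor NXF1-NXT1, which carries it through the nuclear pore. THOC2 is the large scaffold subunit and binds the helicase, THOC1 is a core subunit, THOC3 and THOC6 are WD-repeat proteins, and THOC5 and THOC7 are coiled-coil partners of one another. SARNP is a small RNA-binding protein that joins through DDX39B.

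All libraries came from A549, a human lung adenocarcinoma cell line, and poly(A) RNA was sequenced in 24 libraries from 7 groups. In the first experiment, cells received siRNAs against MYBL2 (siMYBL2, n = 4), siRNAs against FOXM1 (siFOXM1, n = 4) or scrambled siRNA (siControl, n = 4). In the second, they received both sets of siRNAs together (siBoth, n = 3) or scrambled siRNA (siControl_Both, n = 3), and all siRNAs were used at 25 nM. In the third, they were treated for 24 h with 20 μM FDI-6, a small molecule that inhibits FOXM1 (FDI6, n = 3), or left as its control (control_FDI6, n = 3). MYBL2 and FOXM1 are transcription factors of the cell cycle. A single cell line was used and each knockdown rests on one siRNA reagent per gene, so what comes from the loss of the target and what comes from the siRNA sequence itself cannot be told apart. The siMYBL2 and siFOXM1 libraries were compared with the same 4 siControl libraries, and the values of these 2 comparisons are therefore given side by side and are not independent.

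Between 16487394 and 30140550 reads per library were counted on genes. Reads that did not align made up 9.09% to 10.9% of the reads in siBoth, 7.68% to 7.92% in siControl_Both and 1.73% to 3.03% elsewhere. Treated and control libraries of that experiment thus differed in this share, and its part in their comparison was not tested. Levels are given as CPM, read counts scaled to library size by the TMM method, and differences as log2 fold changes from edgeR with their standard errors (SE). Epithelial KRT8 and KRT18 (at least 1597 and 1020 CPM) and the A549-associated AKR1B10 and ALDH1A1 were high in all 24 libraries, whereas the leukocyte genes PTPRC and CD3E did not exceed 0.232 CPM. The other markers examined were less clear. Epithelial KRT19, CDH1 and EPCAM ranged from 37.7 to 349, 9.51 to 90.3 and 1.67 to 37.5 CPM, and AKR1C1 from 106 to 449 CPM. Fibroblast COL1A1 and COL3A1 ranged from 4.91 to 58.8 and 0.325 to 7.02 CPM. Endothelial PECAM1 and CDH5 reached 2.81 and 2.09 CPM. The knockdowns were present in the labelled libraries. MYBL2 fell from 154 CPM in siControl to 6.38 CPM in siMYBL2, FOXM1 from 126 CPM to 12.1 CPM in siFOXM1, and both fell in siBoth, to 8.54 and 13.2 CPM from 174 and 137 CPM.

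THOC7 (ENSG00000163634.11) lies on chromosome 3, on the minus strand of hg38 at chr3:63833870-63863868, and its canonical transcript has 8 exons and a 3′ untranslated region (UTR) of 262 bases. The 3′ UTRs of the members were searched on the transcript strand for the word GTGTTTA, because an earlier ranking of the siFOXM1 contrast had found these 7 letters often in the 3′ UTRs of genes that fell there. The sites below are those of the members, of the genes most like THOC7 and of the export genes described with a fold change over 1.5, shown to set THOC7 beside other genes that share the word. The word is in capitals, each line gives the stretch around a site from 5′ to 3′ on the transcript strand, and the bases come from the GENCODE V44 canonical transcripts.

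THOC7, chr3:63834059-63834087, minus strand: atgaccataatGTGTTTAaaatgtggtat
THOC2, chrX:123600800-123600828, minus strand: caacattaaacGTGTTTAaaaaagaaaaa
FYTTD1, chr3:197782538-197782566, plus strand: ttaaaatgttgGTGTTTAgagactgtaaa
FYTTD1, chr3:197782623-197782651, plus strand: aatgacagtttGTGTTTAataaatgaagg
FYTTD1, chr3:197786516-197786544, plus strand: gaggtataccaGTGTTTAaagattagttg
EIF3L, chr22:37888715-37888743, plus strand: atcagttgttaGTGTTTAaattgagttat
FKBP5, chr6:35575740-35575768, minus strand: aggacagaacaGTGTTTAatgtaaagttt
SMIM13, chr6:11136292-11136320, plus strand: ctctgggctgaGTGTTTAccagggagaag
SEM1, chr7:96688819-96688847, minus strand: actaaaaaaatGTGTTTAtttcattatct
SRSF1, chr17:58001939-58001967, minus strand: ctcaagtttgaGTGTTTAaagttgaaaga

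Of the 9 members, 2 (THOC7 and THOC2) held the word, and 7 of 40 other mRNA export genes did. THOC7 held 1 copy, starting at base 56 of its 3′ UTR, and THOC2 held 1, starting at base 540 of 788. The word occurs in 2951 of 19417 canonical 3′ UTRs of at least 30 bases (15.2%), and in 38 of the 1733 whose length is within 25% of that of THOC7 (2.19%). THOC7 itself fell in the siFOXM1 contrast from which the word came. Its copy is therefore not independent of the choice of the word, and these shares carry no test. Neither THOC7 nor any other member held CCTTACA or ACGCCCA, the words found by the same kind of ranking for the siMYBL2 contrast. A match of this kind is a description of letters, and whether anything acts there was not tested. Among the genes shown, SEM1 and SRSF1 did not pass in siFOXM1, where SEM1 was at −0.23 (edgeR adjusted p = 0.139) and SRSF1 at −0.05 (edgeR adjusted p = 0.938) on the log2 scale, nor did THOC2. The export genes with the word that are not shown did not pass in siFOXM1 either, in the edgeR fit without pairing. These were NCBP3 at −0.07, DDX19B at 0.09, RBM8A at −0.19 and CASC3 at −0.20. The unadjusted edgeR p was 0.00546 for SEM1, 0.0163 for RBM8A and 0.00681 for CASC3, and over 0.05 for SRSF1, NCBP3 and DDX19B. All SEM1 libraries of siFOXM1 lay below all controls, in a comparison where 9.33% of genes tested had groups that did not overlap.

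In the first experiment, THOC7 was low in every siFOXM1 library. Its levels were 9.02, 12.5, 9.22 and 10.4 CPM in siFOXM1 replicates 1 to 4, against 46.2, 46.0, 46.4 and 42.7 CPM in siControl. The siFOXM1 mean of 10.3 ± 1.60 CPM (SD, n = 4) was 22.7% of the siControl mean of 45.3 ± 1.73 CPM (SD, n = 4). The log2 fold change was −2.14, and its SE was 0.107. In siMYBL2, the 4 libraries held 45.0, 48.7, 47.2 and 45.0 CPM and overlapped the controls. The log2 fold change there was 0.04 (SE 0.0603), given without a test because THOC7 was chosen as falling with one of the siRNA sets only. FOXM1 itself was at 60.2% of control in the same siMYBL2 libraries and at 77.6% in the FDI6 libraries. In bulk RNA, fewer cells holding a transcript and less of it per cell cannot be told apart.

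**Figure D1:**
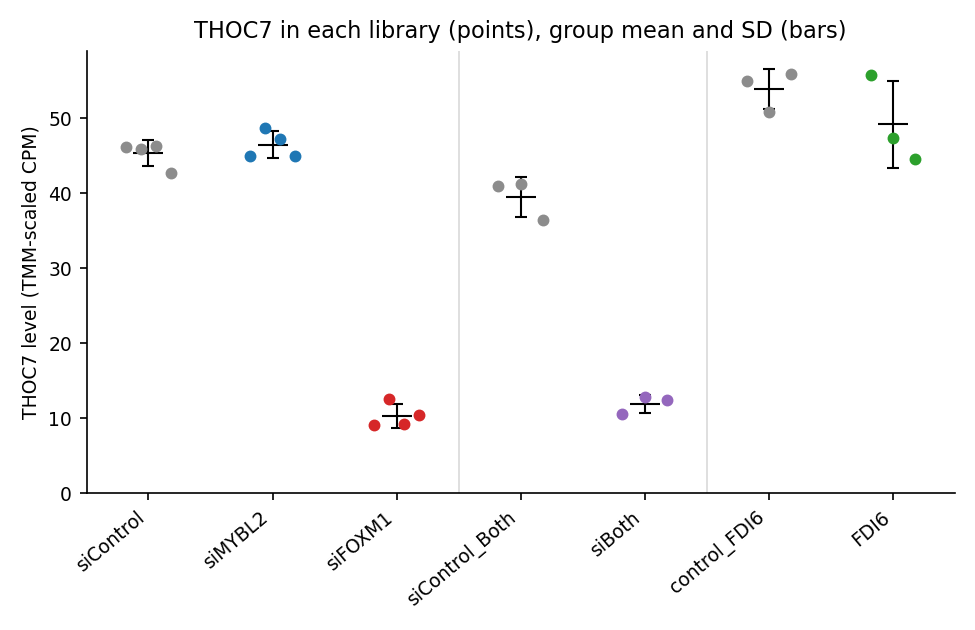
THOC7 level in TMM-scaled CPM in each of the 24 libraries (points) with the group mean and SD (bars), grey for control groups and vertical lines between the 3 experiments. The 4 siFOXM1 and 3 siBoth libraries lie between 9.02 and 12.9 CPM, and the other 17 libraries lie between 36.5 and 55.9 CPM.

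The siBoth experiment contained the FOXM1 siRNAs in libraries other than those that chose THOC7. THOC7 measured 10.5, 12.9 and 12.4 CPM in siBoth and 41.0, 41.2 and 36.5 CPM in siControl_Both. All siBoth libraries lay below all of their controls, at 30.1% of the control mean, and the log2 fold change was −1.73 (SE 0.113, edgeR adjusted p = 1.99e-04, lower in 3 of 3 numbered pairs). In this comparison 12.3% of the 15812 genes tested passed an adjusted p of 0.05, and 6.44% did so with a fold change over 1.5. The fall was present without any 1 of the 6 libraries, at log2 fold changes between −1.79 and −1.66.

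The response of THOC7 to siBoth differed from its response to siMYBL2 by −1.77 on the log2 scale (SE 0.114). This value rests on the siMYBL2 and siControl libraries that were part of the choice of THOC7, and it is therefore a description without a test. Of 17012 genes, 0.176% passed in that contrast. Under FDI-6, THOC7 held 55.8, 47.3 and 44.6 CPM against 55.1, 50.9 and 55.9 CPM in the controls. These groups overlapped, and the log2 fold change of −0.13 did not pass the test (SE 0.0915, 95% interval −0.31 to 0.04, edgeR adjusted p = 0.267). FDI6 replicate 1 decided this: without it the value was −0.23 and the adjusted p was 0.00901. The responses to siBoth and to FDI-6 differed by −1.59 (SE 0.149, edgeR interaction test, adjusted p = 6.98e-06), in a test that 32.6% of 16725 genes passed.

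The group means of THOC7, listed across experiments as a description, ran from siFOXM1 (10.3 CPM) and siBoth (11.9 CPM), whose ranges overlapped, to siControl_Both (39.6 CPM), siControl (45.3 CPM), siMYBL2 (46.5 CPM), FDI6 (49.2 CPM) and control_FDI6 (53.9 CPM). The ranges of siControl, siMYBL2 and FDI6 overlapped one another, as did those of FDI6 and control_FDI6. Per kilobase of canonical transcript, THOC7 was the second most abundant member in siControl, at 50.8 ± 1.94 CPM per kb (SD, n = 4), after ALYREF at 121 ± 10.8 CPM per kb. It was followed by DDX39B (29.1), THOC2 (28.4), THOC3 (24.8), THOC6 (16.3), THOC1 (14.9) and THOC5 (9.23 CPM per kb), and the ranges of DDX39B, THOC2 and THOC3 overlapped, as did those of THOC6 and THOC1. In siFOXM1 it was the seventh, at 11.5 ± 1.80 CPM per kb (SD, n = 4), between THOC1 (14.2 CPM per kb), with which its range overlapped, and THOC5 (8.10 CPM per kb), with which it did not. This order rests on counted reads only. Reads that DDX39B or SARNP shared with read-through genes were set aside, so their places in it are uncertain.

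Without pairing of the libraries, the other subunits did not pass the test with the FOXM1 siRNAs, whereas a replicate block called 1 of them, THOC5, in siFOXM1 and 0 in siBoth. In siFOXM1, 0 of the 7 other members tested passed an adjusted p of 0.05 in edgeR, where 1.37% of 15892 genes did (0.667% with a fold change over 1.5), and 1 of them, THOC5, had an unadjusted p under 0.05. Their log2 fold changes lay between −0.20 and 0.08, and the 95% intervals of all 7 lay between −0.35 and 0.27. In siBoth, 0 of 7 passed in edgeR and 0 had an unadjusted p under 0.05, with log2 fold changes from −0.15 to 0.12 and 95% intervals between −0.54 and 0.38. DESeq2 also called 0 of 7 in both comparisons. None of the 7 had groups that did not overlap in either comparison, whereas 9.33% of the genes tested did in siFOXM1 and 35.1% in siBoth.

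**Figure D2:**
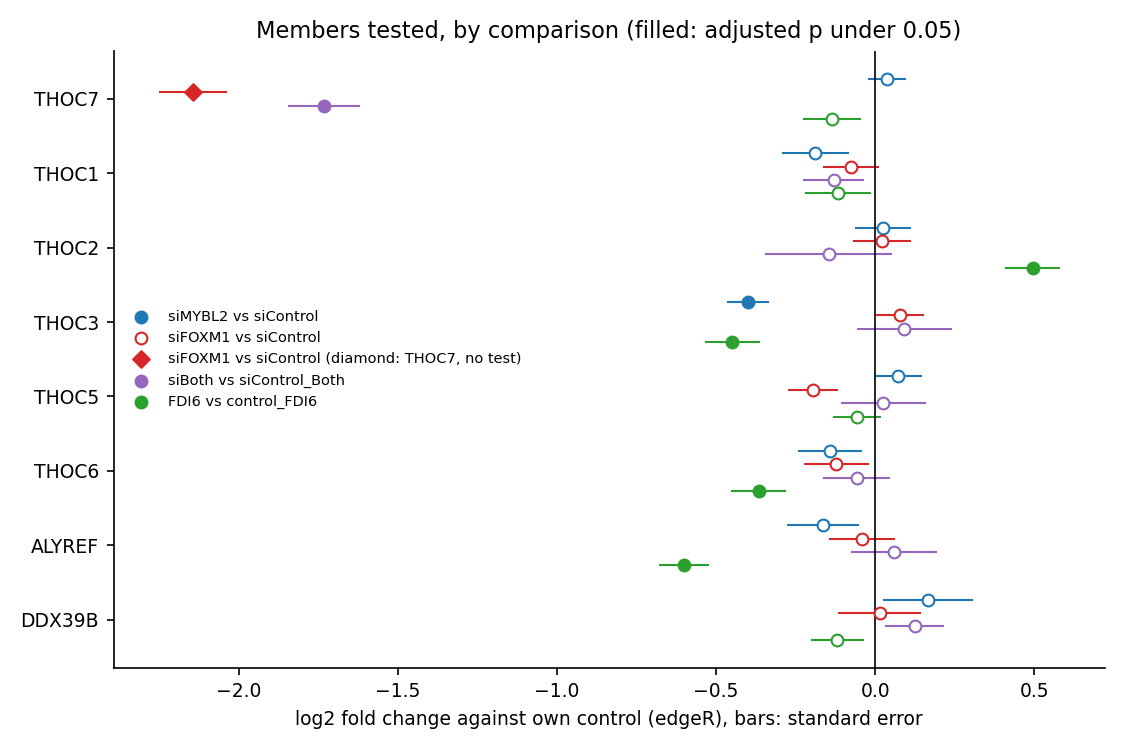
Log2 fold change of the 8 members that were tested, in each of the 4 comparisons against the own control, with standard errors as bars. Filled points passed an adjusted p of 0.05, open points did not, and the diamond is the untested THOC7 value in siFOXM1. THOC7 stands at −2.14 in siFOXM1 and −1.73 in siBoth, and the other members lie between −0.60 and 0.49 in all comparisons.

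THOC5, the coiled-coil partner of THOC7, came nearest in siFOXM1. It measured 38.2, 41.1, 39.2 and 34.6 CPM there and 43.9, 45.9, 45.6 and 39.2 CPM in siControl, lower in 4 of 4 numbered pairs although the groups overlapped. Its log2 fold change was −0.20 (SE 0.0776, edgeR adjusted p = 0.316). A replicate block brought the edgeR adjusted p to 0.00123, in a fit that called 26.3% of all genes. In siBoth, which also holds the FOXM1 siRNAs, the THOC5 log2 fold change was 0.03 (95% interval −0.24 to 0.29, edgeR adjusted p = 0.922). THOC2, the scaffold, holds the same word as THOC7 in its 3′ UTR, and its log2 fold changes were 0.02 in siFOXM1 (edgeR adjusted p = 0.969) and −0.15 in siBoth (edgeR adjusted p = 0.666). In the siBoth experiment THOC2 was lowest in replicate 2 of both groups, at 75.6 CPM in siBoth and 88.3 CPM in siControl_Both, against 111 to 130 CPM in the other 4 libraries.

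With the MYBL2 siRNAs, 1 of the 7 other members passed, in a comparison in which 18.1% of 16065 genes did (7.90% with a fold change over 1.5). This was THOC3, which measured 29.02, 30.9, 28.9 and 31.3 CPM in siMYBL2 and 39.1, 36.7, 40.5 and 42.5 CPM in siControl. All siMYBL2 libraries lay below all controls, at 75.7% of the control mean, with a log2 fold change of −0.40 (SE 0.0675, edgeR adjusted p = 0.00454). Groups that did not overlap were found for 23.2% of the genes tested. In siBoth, which also contained the MYBL2 siRNAs, THOC3 measured 14.03, 17.7 and 16.1 CPM against 14.8, 17.3 and 12.7 CPM, and its log2 fold change was 0.09 (95% interval −0.20 to 0.38, edgeR adjusted p = 0.719). The difference between these 2 responses was 0.49 and did not pass (SE 0.148, edgeR interaction test, adjusted p = 0.38), but did with the replicate block (adjusted p = 0.0155). With that block, 4 of the 7 passed in siMYBL2, where 46.7% of all genes did: THOC3, THOC1 (log2 fold change −0.19, edgeR adjusted p = 0.0172), ALYREF (−0.17, adjusted p = 0.0112) and DDX39B (0.17, adjusted p = 0.0139).

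Under FDI-6, ALYREF, THOC3 and THOC6 fell and THOC2 rose. Thus 4 of the 7 members other than THOC7 passed, where 38.9% of 15240 genes did, and 1 passed with a fold change over 1.5, where 13.8% of genes did. ALYREF, the export adaptor, fell from 197, 177 and 185 CPM to 112, 134 and 124 CPM, at a log2 fold change of −0.60 (SE 0.0779, edgeR adjusted p = 1.38e-04). THOC3 fell from 59.9, 61.7 and 52.1 CPM to 43.04, 43.95 and 40.6 CPM, at −0.45 (SE 0.0853, edgeR adjusted p = 0.00172). THOC6, which helps THO assemble into its larger form, fell from 38.4, 38.7 and 34.4 CPM to 30.3, 28.2 and 28.2 CPM, at −0.37 (SE 0.0858, edgeR adjusted p = 0.00588).

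The scaffold moved the other way. THOC2 rose from 69.2, 75.9 and 76.4 CPM to 116, 102 and 94.3 CPM under FDI-6, at a log2 fold change of 0.49 (SE 0.0853, edgeR adjusted p = 9.43e-04). The FDI6 and control libraries did not overlap for these 4 members, as for 51.6% of all genes tested. THOC1, THOC5 and DDX39B had log2 fold changes of −0.12, −0.06 and −0.12 and overlapped between groups (edgeR adjusted p = 0.399, 0.588 and 0.281). The interaction between siBoth and FDI-6 passed for THOC3 (difference 0.55, edgeR adjusted p = 0.0214) and ALYREF (0.67, edgeR adjusted p = 0.00588) beside THOC7, and not for THOC2 (−0.63, edgeR adjusted p = 0.0535). Thus 2 of the 7 members other than THOC7 passed (28.6%), where 32.6% of 16725 genes did. The THOC3 call was lost without siBoth replicate 2, siControl_Both replicate 3 or control_FDI6 replicate 1 or 2, with differences between 0.44 and 0.52.

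**Figure D3:**
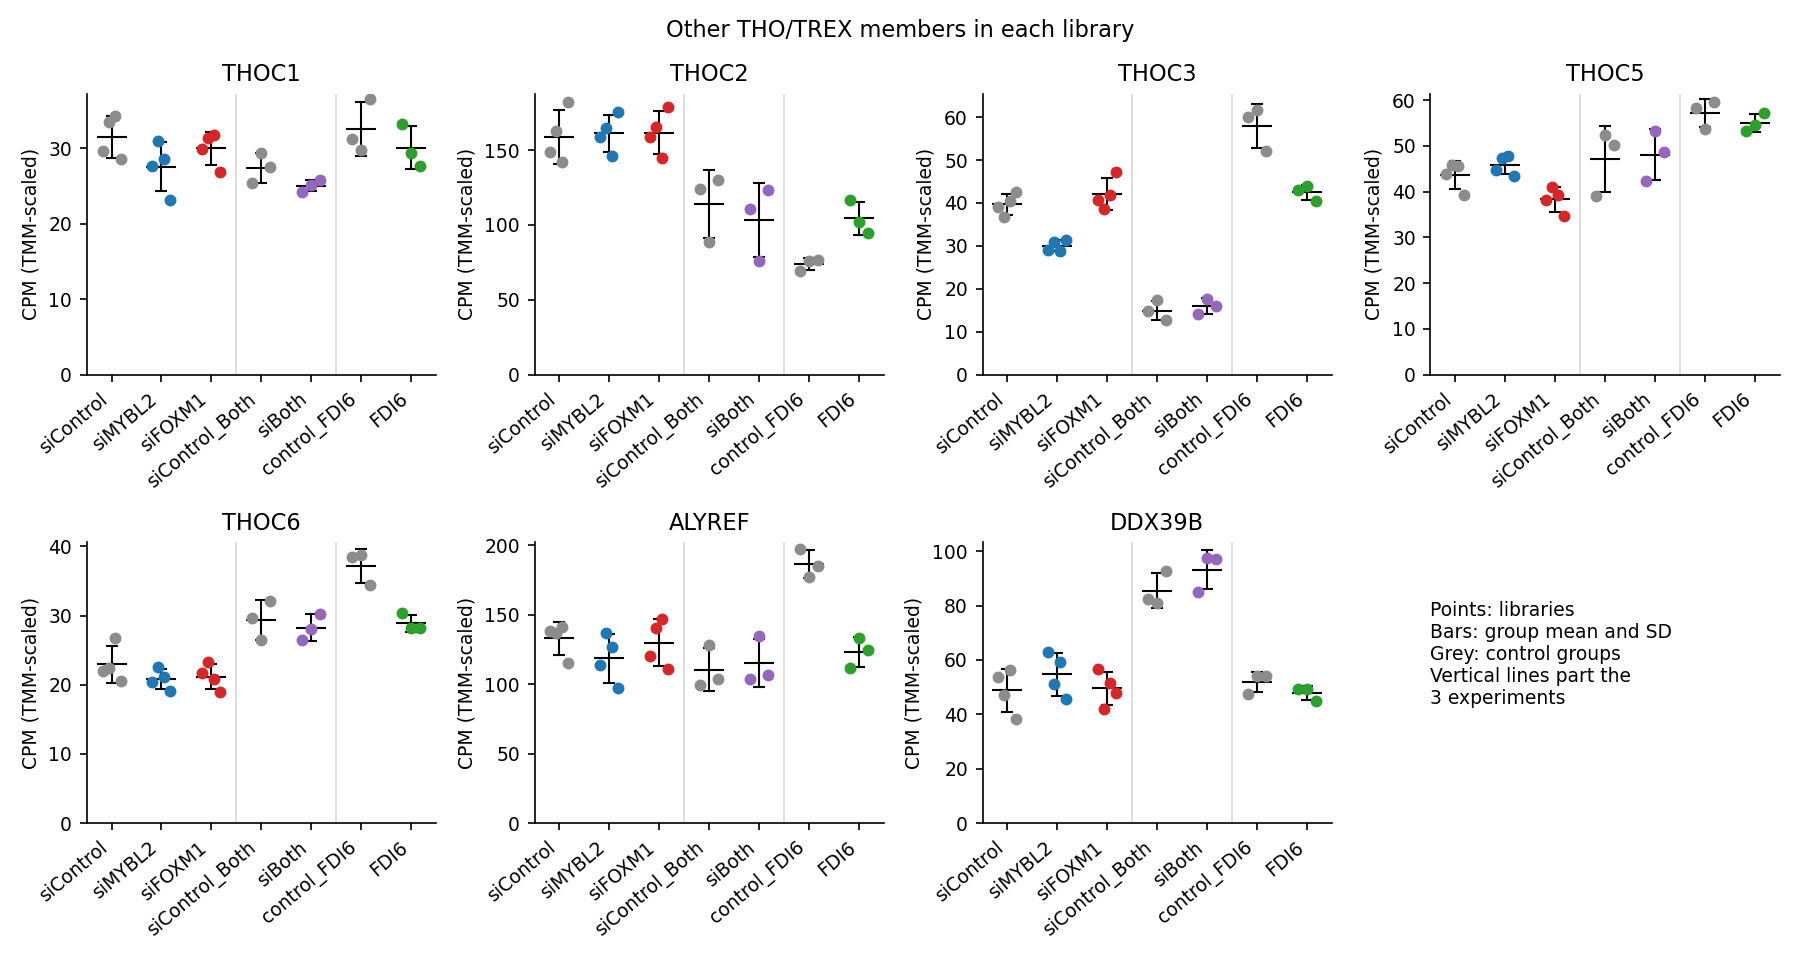
Level of 7 other members in TMM-scaled CPM in each of the 24 libraries (points), with group means and SDs (bars) and control groups in grey. In the FDI-6 experiment ALYREF, THOC3 and THOC6 are lower and THOC2 higher than in the controls without overlap, and several members also differ between the control groups of the 3 experiments.

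Levels also differed between the 3 experiments, whose controls were separate libraries. THOC3 averaged 39.7 CPM in siControl, 14.9 CPM in siControl_Both and 57.9 CPM in control_FDI6, and DDX39B averaged 48.8, 85.5 and 51.9 CPM. Experiment, library preparation and sequencing cannot be told apart here, so each treatment was tested only against its own control or as a difference of such effects, and levels set across experiments are descriptions. Of the 7007 exon bases of DDX39B over all annotated transcripts, 30.8% overlap genes on the same strand. Chief among these is the read-through gene ATP6V1G2-DDX39B, which shares 2079 bases and was listed at 0 in all 24 libraries. The canonical DDX39B transcript has 1681 bases, and how much of it lies in the shared stretch was not tested. Of the exon bases of THOC6, 18% overlap genes on the opposite strand. Counting set aside reads that could belong to more than 1 gene.

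SARNP could not be compared. It held 0 to 9 reads per library, at most 0.342 CPM, and passed the filter on low counts in none of the comparisons. Of its 3365 exon bases over all annotated transcripts, 26.5% overlap a read-through gene (ENSG00000257390) on the same strand. That gene itself held at most 0.184 CPM, and reads that both could claim were set aside. The shared stretch is nearly as long as the canonical SARNP transcript, which has 898 bases. How much of that transcript lies in the shared stretch was not tested, so the low counts do not give the level of SARNP.

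The genes around THOC7 were examined for a change of the locus as a whole. C3orf49, THOC7-AS1 and ATXN7 overlap THOC7 on the opposite strand, and ATXN7 shares 2 of its exon bases. C3orf49 and THOC7-AS1 did not exceed 0.549 and 0.349 CPM, and SNTN, the nearest protein-coding gene on the side of lower coordinates, was listed at 0 in all libraries. ATXN7 held 1.09 to 1.37 CPM in siFOXM1 and 0.845 to 1.32 CPM in siControl. PSMD6, a proteasome subunit 146681 bases away on the other side, held 82.1 to 84.4 CPM in siFOXM1 and 83.2 to 90.5 CPM in siControl, and 70.4 to 74.8 CPM in siBoth against 74.5 to 75.4 CPM in siControl_Both. In siBoth ATXN7 held 0.948 to 1.015 CPM and lay below its controls at 1.14 to 1.77 CPM, on 24 to 40 reads per library. Groups that did not overlap were found there for 35.1% of the genes tested. The ATXN7 log2 fold change in siBoth was −0.51 and did not pass (SE 0.26, edgeR adjusted p = 0.227). PSMD6 thus had overlapping ranges in both comparisons in which THOC7 was at 22.7% and 30.1% of control, and ATXN7 in siFOXM1 only.

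Other genes of the mRNA export pathway were read from a list of 40, of which 38 were tested. In siFOXM1, 2 of 38 passed (5.26%, beside 1.37% of all genes, of whose 217 calls 173 were lower), both lower, with a median log2 fold change of −0.02 for the list and 0.00 for all genes. FYTTD1 (UIF), an export adaptor that binds DDX39B and works beside ALYREF, measured 28.8, 35.0, 22.3 and 29.9 CPM in siFOXM1 and 68.3, 69.8, 66.1 and 61.5 CPM in siControl. It lay below every control, at a log2 fold change of −1.20 (SE 0.122, edgeR adjusted p = 0.00172). Its 3′ UTR of 5687 bases holds 3 copies of GTGTTTA, and the share with the word among 3′ UTRs of that length was not taken. NCBP2, which binds the cap, was the other gene that passed, at −0.24 (edgeR adjusted p = 0.0476). The 3′ UTR of NCBP2 has 1605 bases and holds 0 copies. The count was 1 of 38 without any 1 of the 8 libraries, and FYTTD1 passed in each of these fits, at −1.31 to −1.10. With the replicate block, the share of the list that passed was close to the 26.3% of all genes.

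In siBoth, FYTTD1 measured 40.2, 36.1 and 42.2 CPM against 55.3, 60.9 and 57.8 CPM, at a log2 fold change of −0.55 (SE 0.0896, edgeR adjusted p = 0.00811). In siMYBL2 it was at 0.14 (edgeR adjusted p = 0.185), and its responses to siBoth and siMYBL2 differed by −0.69 (edgeR interaction test, adjusted p = 0.02). Under FDI-6 it rose, at 0.34 (edgeR adjusted p = 0.0164). Thus FYTTD1 and THOC7 were both lower in the libraries with FOXM1 siRNAs, and their values under FDI-6 lay on opposite sides of 0, although that of THOC7 did not pass.

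GLE1, which activates the helicase that strips export factors from mRNA at the cytoplasmic face of the pore, followed the MYBL2 siRNAs instead. It measured 32.6, 42.7, 29.5 and 35.5 CPM in siMYBL2 and 60.6, 66.8, 58.5 and 67.7 CPM in siControl, at a log2 fold change of −0.85 (SE 0.11, edgeR adjusted p = 0.00141). In siBoth it was at −1.16 (SE 0.075, edgeR adjusted p = 1.94e-04), and in siFOXM1 at −0.00479 (95% interval −0.13 to 0.12, edgeR adjusted p = 0.989). In siMYBL2, 6 of 38 export genes passed (15.8%, beside 18.1% of all genes) and all were lower, with a list median of −0.08 against 0.01 for all genes. The count was 1 without siMYBL2 replicate 1, 3 without siControl replicate 1 or 2, and 11 without siControl replicate 4. In siBoth, 5 of 38 passed (13.2%, beside 12.3% of all genes, of whose 1949 calls 1229 were lower) and all were lower, with medians of −0.11 and 0.02, and 2 passed without siControl_Both replicate 2 or 3. SRSF1, an SR protein of splicing and export, was past 1.5-fold there, at −0.60 (edgeR adjusted p = 0.045), and did not pass without siBoth replicate 1 or 2 or siControl_Both replicate 2 or 3.

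Under FDI-6, 15 of 38 export genes passed (39.5%, near the 38.9% of all genes), 5 higher and 10 lower, with medians of −0.05 for the list and −0.01 for all genes, and 9 passed without control_FDI6 replicate 1 or 2. SEM1, a small subunit of TREX-2 and of the proteasome, was past 1.5-fold, at −0.80 (SE 0.158, edgeR adjusted p = 0.00222), with 32.01, 51.4 and 54.9 CPM against 87.8, 74.3 and 78.6 CPM. Of the adaptors and partners of TREX, 5 of the 6 tested passed, with ERH at −0.56, DDX39A at −0.33, POLDIP3 at −0.21 and CHTOP at −0.19 lower and FYTTD1 higher. This was the highest share among the parts of the list. Elsewhere 0 of 5 exon junction complex, 3 of 11 pore, 2 of 6 TREX-2, 1 of 3 export receptor, 2 of 4 cap-binding and 2 of 3 SR adaptor genes passed. The nuclear basket proteins NUP153 and TPR were higher, at 0.42 and 0.25.

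**Figure D4:**
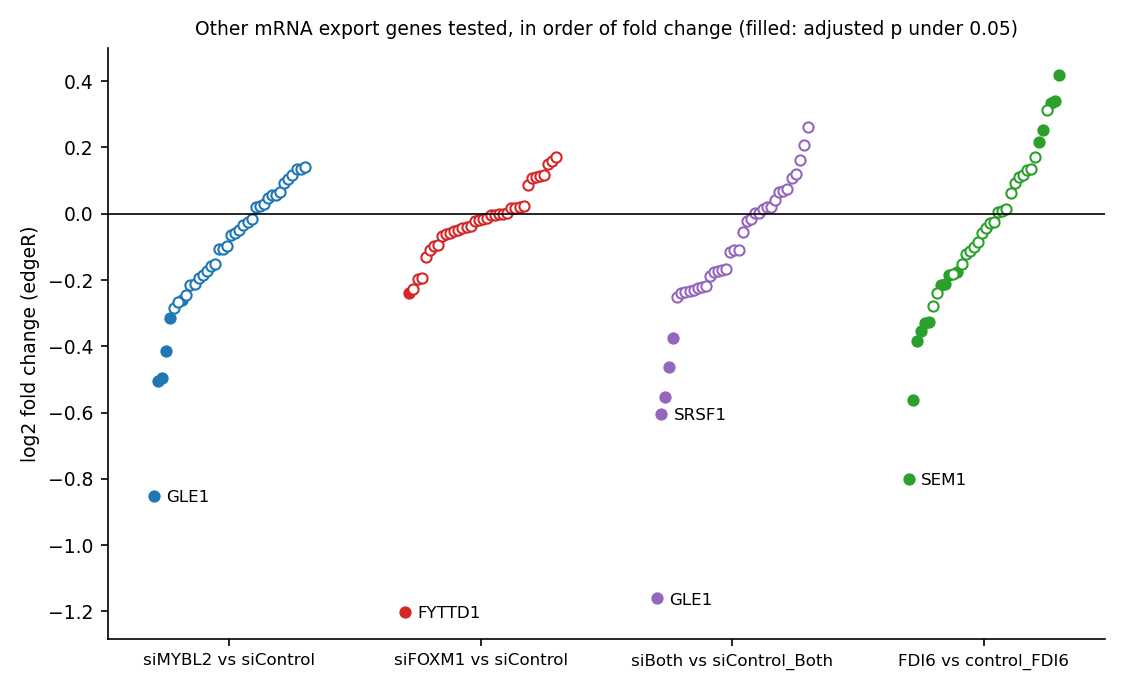
Log2 fold changes of the 38 other mRNA export genes tested, ordered within each of the 4 comparisons, with filled points for an adjusted p under 0.05. Genes past a fold change of 1.5 are labelled: GLE1 in siMYBL2 and siBoth, FYTTD1 in siFOXM1, SRSF1 in siBoth and SEM1 under FDI-6.

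The genes whose pattern over the 24 libraries was most like that of THOC7 were ranked by Pearson's r of log2 CPM, taken relative to the mean of the own control group, among 13926 genes. The first 4 were EIF3L, a subunit of the translation factor eIF3 (r = 0.971), FOXM1 (r = 0.964), FKBP5, a co-chaperone of steroid receptors (r = 0.959) and SMIM13 (r = 0.952). These values describe genes selected on likeness over shared libraries and carry no test. The log2 fold changes were −0.61, −3.38, −1.16 and −1.06 in siFOXM1 and −0.56, −3.37, −0.79 and −0.78 in siBoth, in that order. They were 0.01, −0.73, 0.14 and −0.23 in siMYBL2 and 0.04, −0.37, −0.13 and 0.08 under FDI-6. EIF3L, FKBP5 and SMIM13 hold GTGTTTA in the canonical 3′ UTR, and FOXM1 does not. FYTTD1 was the 11th, at r = 0.925, whereas the members of the complex ranked from THOC5 (r = 0.437, rank 1112) to THOC3 (r = −0.467, rank 13003).

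**Figure D5:**
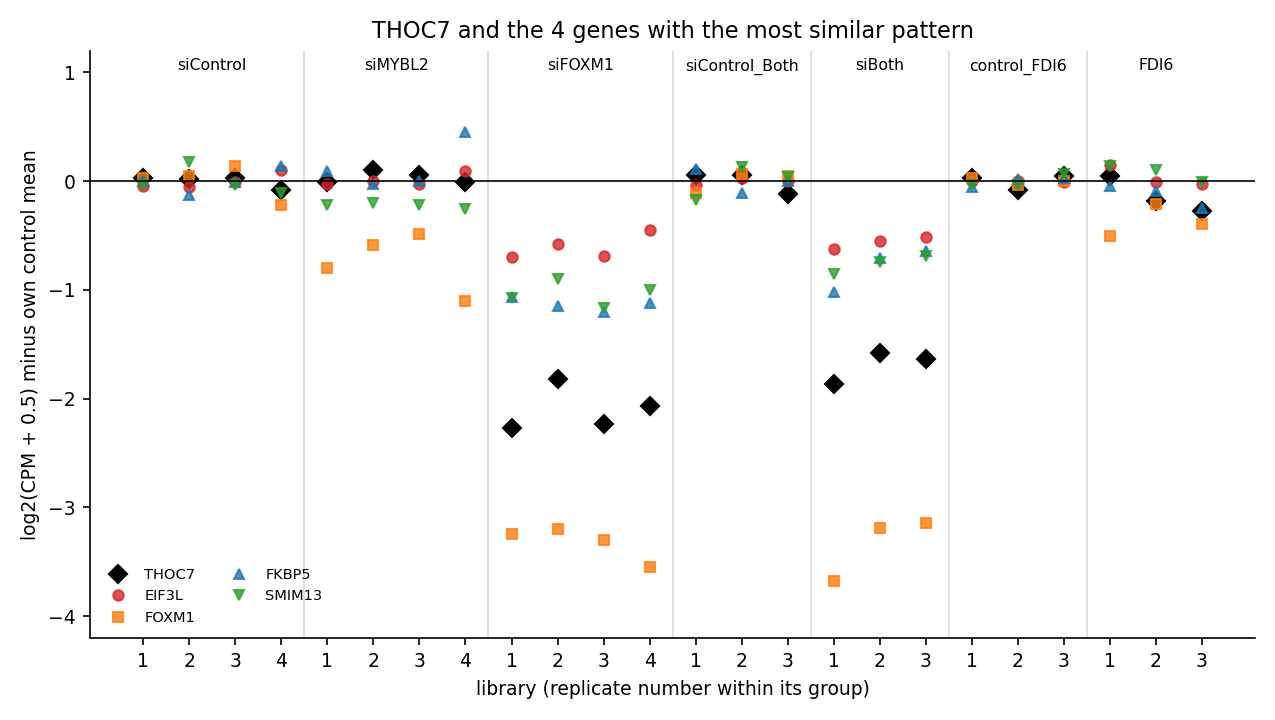
Log2(CPM + 0.5) minus the mean of the own control group, for THOC7 (black diamonds) and the 4 genes with the most similar pattern, in each of the 24 libraries. All of these genes are below 0 in the siFOXM1 and siBoth libraries, and FOXM1 is also below 0 in every siMYBL2 and FDI6 library. SMIM13 is also below 0 in every siMYBL2 library and FKBP5 in every FDI6 library.

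Over all genes tested with a canonical 3′ UTR, 60 of the 93 that fell past 1.5-fold in siFOXM1 held GTGTTTA (64.5%), beside 17.6% of all 13142. That contrast chose the word. In siBoth, 204 of 544 held it (37.5%), in siMYBL2 104 of 500 (20.8%) and under FDI-6 68 of 719 (9.46%), where the word was in 17.6%, 17.5% and 17.7% of the genes tested. Genes with the word and genes lacking it had median log2 fold changes of −0.07 and 0.01 in siFOXM1, −0.13 and 0.02 in siBoth, 0.01 and 0.02 in siMYBL2 and 0.20 and −0.05 under FDI-6. Longer 3′ UTRs hold the word more often, and the part that length had in these shares was not tested.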

How the data were processed

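The authors trimmed reads with Trim Galore, used STAR for alignment to hg38 and HTSeq for counting reads per gene, with the GENCODE V29 annotation; tool versions and the strand setting are not given in the sources used here. The deposited files hold raw counts per gene for 24 libraries, and rows for unassigned reads (not aligned, ambiguous and others) were left out of library sizes. Symbols and positions came from GENCODE V44, which matched 58207 of 58721 identifiers. Each treatment was compared with its own control by edgeR 4.0.16 (R 4.3.3; TMM, filterByExpr, quasi-likelihood test, Benjamini-Hochberg over all genes tested). DESeq2, the tool the study used, served as an alternative (version 1.42.0 here). A gene was called at an adjusted p under 0.05, and separately with a fold change over 1.5. Interactions were contrasts in 1 fit of 4 groups. Likeness used log2(CPM + 0.5) and genes with a mean of at least 1 CPM. The fitting script was tested on simulated data.

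The members and lists were chosen with earlier results of these data known. Named genes were the members, MYBL2, FOXM1, export genes called with a fold change over 1.5, the neighbours of THOC7 and the 5 genes most like it, of which 4 are reported here; NCBP2 and the further export genes under FDI-6 were named after their values were seen. The paper states biological replicates. The replicate numbers were checked for pairing: deviations from the group means correlated between same-numbered libraries at 0.577 to 0.879 in siMYBL2, 0.548 to 0.909 in siFOXM1 and 0.558 to 0.692 in siBoth, and at −0.296 to 0.166 in FDI6, so the numbers were taken to pair the siRNA libraries only. No 2 replicates agreed within sampling noise. Alternatives were DESeq2, other scalings, other filters, the replicate block, 1 fit of all libraries and leaving out each replicate.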

Additional observations from a re-analysis of the deposited data

Results flagged for a closer look

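Among the 24 combinations of a member and a group of 4 libraries, 1 had a library far from the other 3, and chance marks about 1 in 20. This was THOC7 in siControl, where replicate 4 held 42.7 CPM and the other 3 held up to 46.4 CPM. Without that library, the THOC7 log2 fold change in siMYBL2 was −0.00568, and in siFOXM1 it lay between −2.25 and −2.09 whichever library was left out.

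Responses that differed between treatments by a test of the difference itself were those of THOC7 between siBoth and FDI-6 (−1.59, edgeR adjusted p = 6.98e-06), of THOC3 between siBoth and FDI-6 (0.55, edgeR adjusted p = 0.0214), and of ALYREF between siBoth and FDI-6 (0.67, edgeR adjusted p = 0.00588). Of the 7 members other than THOC7, 2 passed in that test (28.6%), beside 32.6% of all genes tested. The THOC7 responses to siBoth and siMYBL2 also differed, by −1.77, in libraries that were partly those of its choice, so that no p is given. Each of these pairs of treatments came from separate experiments with separate controls. The THOC3 control means of those experiments were 14.9 and 57.9 CPM, and their part in its difference was not tested.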

How the results depend on the processing

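The fall of THOC7 in siBoth and its difference between siBoth and FDI-6 passed under DESeq2, other scalings, other filters, the replicate block, 1 fit of all 24 libraries and without any 1 library. The replicate block pairs libraries by number in the siRNA comparisons. In siMYBL2 it called 7507 genes (46.7% of those tested, 1991 with fold), 18 of 38 export genes and 4 of 7 members other than THOC7. In siFOXM1 it called 4187 genes (26.3%, 401 with fold), 10 of 38 export genes and 1 of 7 members. In siBoth it called 5501 genes (34.8%, 1849 with fold) and 12 of 38 export genes. In the difference between siBoth and siMYBL2 it called 1200 genes (7.05%) and 1 of 7 members. DESeq2 called 677 genes (4.26%) and 4 of 38 export genes in siFOXM1, and 138 genes (0.811%) in that difference. The fit of all libraries called 434 in siFOXM1, 3085 in siBoth (9 export genes) and 54 in that difference. Without a filter, 1545 genes were called with fold in siBoth and 1 export gene in siFOXM1. Upper-quartile scaling called 1 export gene in siFOXM1 and 4 members in the difference between siBoth and FDI-6, turned THOC6 in siBoth to 0.0173, and moved the share of calls that were higher from 47.2% to 59.3% in siMYBL2, from 36.9% to 56.3% in siBoth and from 44.3% to 58.2% in the difference between siBoth and FDI-6, whose median over all genes moved from 0.0427 to 0.155. DESeq2 moved that share from 20.3% to 31.2% in siFOXM1.

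Leaving out each library in turn gave 1632 to 3116 genes in siMYBL2 (1 to 11 export genes), 68 to 224 in siFOXM1 (56 to 115 with fold, 1 to 1 export gene), 727 to 1657 in siBoth (587 to 1097 with fold, 2 to 5 export genes), 3948 to 6626 under FDI-6 (9 to 19 export genes), 7 to 30 in the difference between siBoth and siMYBL2, and 1 to 3 members in that between siBoth and FDI-6. Log2 fold changes ranged from −0.00568 to 0.0571 for THOC7 and −0.0311 to 0.0795 for THOC2 in siMYBL2. In siFOXM1 they ranged from −0.0291 to 0.0903 for THOC2, −0.108 to 0.0291 for ALYREF, −0.0863 to 0.0932 for DDX39B and −0.143 to 0.0260 for MYBL2. In siBoth they ranged from −0.306 to 0.0332 for THOC2, −0.0121 to 0.211 for THOC3, −0.100 to 0.107 for THOC5, −0.131 to 0.00990 for THOC6, −0.0705 to 0.179 for ALYREF and −0.751 to −0.459 for SRSF1. THOC7 under FDI-6 ranged from −0.229 to −0.0723. The causes of these shifts were not tested. Counts of 0 to 9 reads limit SARNP.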
